A study of Mus musculus with 45 samples.

Results

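The endoplasmic reticulum (ER) stress chaperones and regulators described here are Hspa5, Hsp90b1, Dnajb9, Pdia4, Sdf2l1, Creld2, Manf, Herpud1, Xbp1 and Ern1, which are 10 of the 54532 genes in the count table. They were chosen by name as a pathway, with earlier results of these data known, and all 10 had reads in all 45 libraries. RNA was sequenced from primary hippocampal neurons of newborn C57BL/6N mice that the labels place at day in vitro (DIV) 10 or 11 at treatment and the methods for sequencing at DIV 11. The design had 9 conditions with 5 libraries each, 1 from each of 5 culture preparations numbered 1, 3, 6, 7 and 8. Control cultures were not treated. Bicuculline (Bic, 50 µM), an antagonist of GABA type A receptors, was given for 0.5, 1 or 2 h to induce action potential (AP) firing. The short protocol (SP) stopped firing after 0.5 h by adding tetrodotoxin (TTX, 1 µM), a sodium channel blocker, alone or with the receptor agonist NMDA (30 µM), for another 0.5 h with Bic still present. The long protocol (LP) did so after 1 h and for 1 h more, or instead added TBOA (50 µM) without TTX for that hour, which blocks glutamate uptake so that glutamate spills over from synapses. Bath-applied NMDA is a severe model of excitotoxicity and TBOA a milder one. The cultures also hold glia, so that a bulk level cannot tell fewer cells of a type from less RNA per cell.

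Proteins that enter the secretory pathway are folded in the lumen of the ER by chaperones, most of which need calcium. When unfolded proteins build up, the sensors IRE1α, PERK and ATF6 start the unfolded protein response (UPR), in which IRE1α removes an intron from the Xbp1 mRNA, ATF6 is cleaved in the Golgi apparatus, and PERK slows translation and raises ATF4. XBP1 and ATF6 then bind ER stress response elements (ERSE) in the promoters of chaperone genes. Neurons hold large ER calcium stores, and overactivation of NMDA receptors is known to disturb neuronal calcium.

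The members fall into several roles. Hspa5 (ENSMUSG00000026864, GRCm38 chr2:34771970-34777547, plus strand) encodes BiP, the main ER Hsp70 chaperone, and Hsp90b1 (ENSMUSG00000020048, chr10:86690209-86705509, minus strand) encodes GRP94, the ER Hsp90. Dnajb9 (ENSMUSG00000014905, chr12:44205559-44210326, minus strand) encodes ERdj4, a co-chaperone of BiP that also restrains IRE1α. Sdf2l1 (ENSMUSG00000022769, chr16:17130138-17132383, minus strand) encodes a further partner of BiP complexes. Pdia4 (ENSMUSG00000025823, chr6:47796141-47813430, minus strand) encodes the disulfide isomerase ERp72, and Creld2 (ENSMUSG00000023272, chr15:88819646-88826683, plus strand) encodes a small ER protein with similar activity. Manf (ENSMUSG00000032575, chr9:106838312-106891979, minus strand) encodes a secreted ER factor that protects neurons. Herpud1 (ENSMUSG00000031770, chr8:94386438-94395377, plus strand) encodes an ER membrane protein of ER-associated degradation. Xbp1 (ENSMUSG00000020484, chr11:5520659-5525893, plus strand) encodes the transcription factor and Ern1 (ENSMUSG00000020715, chr11:106394650-106487852, minus strand) the sensor IRE1α that activates it. All 10 are annotated as protein coding, and the counts cover all exons of a gene, so that spliced and unspliced Xbp1 mRNA were not separated.

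Promoter windows from 250 bases before to 50 bases after the RefSeq start (GRCm38.p6) were found for 9 members, all but Manf. The elements through which XBP1 and ATF6 are known to act were searched in them on both strands. The ERSE, which is CCAAT, 9 bases of any kind and CCACG, was found in 3 of the 9 windows and in 0.119% of all 32851 promoters. It stood once before Hspa5, at chr2:34772025-34772043. Hsp90b1 had it on both strands, at chr10:86705638-86705656 and chr10:86705533-86705551, and Creld2 had it once on the opposite strand, at chr15:88819520-88819538. The shorter ERSE-II, which is ATTGG, 1 base and CCACG, was found before Herpud1 at chr8:94386377-94386387 and in 0.0365% of all promoters. The windows of Dnajb9, Sdf2l1, Pdia4, Xbp1 and Ern1 held neither element. The matches are shown because they are sites of the kind through which the UPR is known to act, with the fixed letters in capitals, each read 5′ to 3′ on its own strand and placed by its distance in bases from the start.
Hspa5, -65 to -47: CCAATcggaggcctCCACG
Hsp90b1, -212 to -194: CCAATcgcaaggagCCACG
Hsp90b1, -107 to -89: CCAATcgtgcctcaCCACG
Creld2, -126 to -108: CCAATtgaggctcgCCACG
Herpud1, -52 to -42: ATTGGgCCACG
The spacers between the fixed letters differed among the 4 ERSE matches. CCACG alone, which the ERSE and ERSE-II contain, was present in 8 of the 9 windows, all but that of Xbp1, and in 32.8% of all promoters. The letters of the UPRE (TGACGTGG) and of the CRE bound by CREB (TGACGTCA) were in none of the 9 windows, and in 0.676% and 1.79% of all promoters.

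Hspa5 and Creld2 hold the same element, and their mRNA levels moved differently in these cultures. The 250 bases before their starts follow for that reason, at chr2:34771840-34772089 and chr15:88819396-88819645, both on the plus strand, with the fixed ERSE letters in capitals (for Creld2 as they read on the plus strand).
Hspa5: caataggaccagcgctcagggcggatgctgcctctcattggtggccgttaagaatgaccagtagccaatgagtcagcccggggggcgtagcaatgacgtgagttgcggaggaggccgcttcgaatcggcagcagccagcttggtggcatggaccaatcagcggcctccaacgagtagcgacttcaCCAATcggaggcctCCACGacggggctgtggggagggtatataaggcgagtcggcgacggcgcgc
Creld2: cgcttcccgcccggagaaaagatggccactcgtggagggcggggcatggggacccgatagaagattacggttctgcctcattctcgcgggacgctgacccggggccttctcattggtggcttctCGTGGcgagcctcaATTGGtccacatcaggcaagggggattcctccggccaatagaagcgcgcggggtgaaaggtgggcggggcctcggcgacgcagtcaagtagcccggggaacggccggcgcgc
A match is a description of the letters and was not tested for binding.

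The libraries held 11316580 to 81129276 counts on genes (median 26239614). The least sampled value of a member was 56 reads (Sdf2l1) and the highest 38748 (Hspa5), so that counting error weighs most on Sdf2l1, Creld2 and Ern1. No pair of libraries held identical counts, and log2 CPM of libraries of 1 condition correlated with r of at least 0.983 across 13592 expressed genes, which are those with a mean of at least 1 CPM, the count scaled to library size. The 8 neuron markers were all expressed, with a summed level of 6437 to 8558 CPM per library. The 8 astrocyte markers summed to 953.2 to 2215 CPM, the 7 oligodendrocyte lineage markers to 99.1 to 308.9 CPM, the 7 vascular and fibroblast markers to 58.56 to 207.9 CPM and the 7 microglia markers to 6.006 to 12.82 CPM. None of these markers was at 0 in a whole condition.

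Hspa5 and Hsp90b1 were the most abundant of the 10 in the untreated neurons. Per kilobase of exon, the control level was 92.15 ± 22.66 CPM/kb (SD, n = 5) for Hspa5 and 75.34 ± 9.093 for Hsp90b1, and although their control ranges overlapped, Hspa5 was higher in 45 of 45 libraries. Herpud1 followed with 35.5 ± 5.491 CPM/kb and Xbp1 with 23.14 ± 2.348. Dnajb9 (15.73 ± 2.49 CPM/kb), Pdia4 (14.57 ± 1.141) and Manf (13.65 ± 1.368) lay close together, and their control ranges overlapped from each gene to the next. Creld2 (5.287 ± 0.9063 CPM/kb) and Sdf2l1 (5.107 ± 0.6552) could not be told apart by their control ranges, and Creld2 was the higher in 28 of 45 libraries. Ern1 was the lowest with 0.7864 ± 0.1591 CPM/kb, below Sdf2l1 in every library. Across the 9 conditions the means of a member moved little, from 1.159-fold between the lowest and highest condition for Manf to 1.611-fold for Ern1.

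**Figure D1:**
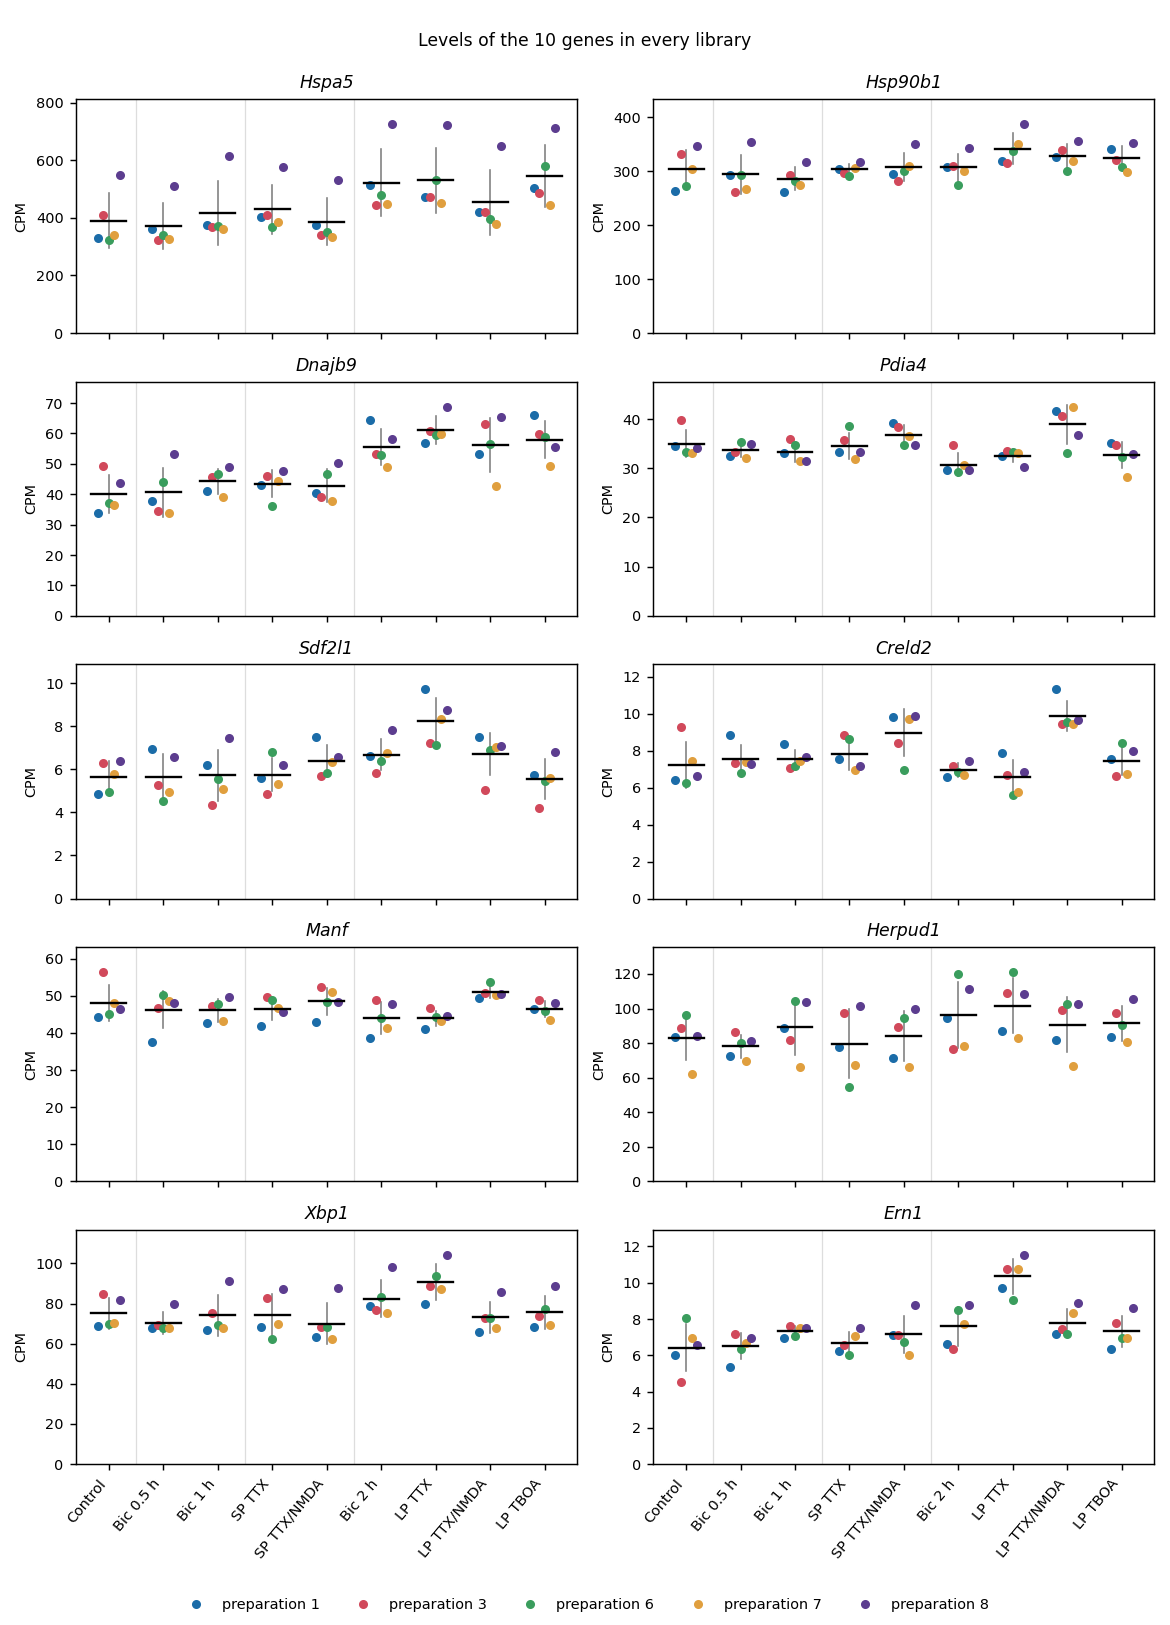
Level of each of the 10 genes (CPM on TMM-normalized library sizes, linear axes from 0) in the 9 conditions. Each point is 1 library, coloured by culture preparation, the black bar is the mean and the grey line 1 SD of 5 libraries. Hspa5 of preparation 8 lies above the other 4 preparations in all 9 conditions, Dnajb9 is higher in the conditions of 2 h in all, Ern1 has its highest mean with LP TTX and Creld2 with LP TTX/NMDA.

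Culture preparations differed in Hspa5 more than conditions did. Preparation 8 had the highest Hspa5 level in 9 of 9 conditions, with its mean 0.60 above the median preparation on the log2 scale, and the preparation means had an SD of 0.28 against 0.21 for the condition means. The same preparation was the highest for Hsp90b1 in 9 conditions and for Xbp1 in 8. For Ern1, Creld2, Sdf2l1, Dnajb9 and Pdia4 the condition means spread more than the preparation means, for Creld2 by an SD of 0.18 against 0.07 and for Dnajb9 by 0.25 against 0.12. Because each preparation gave 1 library to every condition, every comparison was also fitted with the preparation as a block over the genes that pass a low-count filter, called the paired fit below.

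The first question was how AP firing alone changed these genes. After 0.5 h of Bic, 0 of the 10 were called by edgeR's quasi-likelihood test (adjusted p under 0.05), where 0.289% of all genes tested were called, and 0 had an unadjusted p under 0.05. After 1 h, 0 of the 10 were called against 1.16% of all genes, again with 0 at an unadjusted p under 0.05. DESeq2 also called 0 at both times, as did the paired fit, where 0.541% and 4.07% of the genes tested were called. The log2 fold changes ranged from -0.09 to 0.05 after 0.5 h and from -0.09 to 0.17 after 1 h.

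After 2 h of Bic, 2 of the 10 were higher, Dnajb9 and Hspa5, against 4.24% of all genes tested that were higher, and 0 were lower against 4.78% (9.02% in either direction). Among the 13592 expressed genes 18.6% were called in either direction, so that 2 of 10 was near the background. Dnajb9 had 33.69, 49.30, 37.25, 36.43 and 43.83 CPM in the controls of preparations 1, 3, 6, 7 and 8, and 64.27, 53.30, 52.93, 48.84 and 58.29 CPM after 2 h. Its level was higher in every preparation although the groups overlapped, since the control of preparation 3 was higher than the 2 h library of preparation 7. The mean rose from 40.1 to 55.53 CPM (log2 fold change 0.46, SE 0.09, adjusted p = 5.5e-04) and stayed called under all 12 alternatives. Hspa5 had 329.2, 408.3, 322.0, 339.3 and 549.8 CPM in the controls and 515.3, 443.3, 480.2, 448.4 and 725.8 CPM after 2 h. It too was higher in every preparation, least in preparation 3 (0.12 on the log2 scale) and most in preparation 1 (0.65), while preparation 8 kept the groups overlapping. The mean rose from 389.7 to 522.6 CPM (log2 fold change 0.41, SE 0.12, adjusted p = 0.022). Without preparation 8 the log2 fold change of Hspa5 was 0.43 (adjusted p = 3.1e-04), and without preparation 1 it was 0.36 and no longer called (adjusted p = 0.1). The call was also lost with DESeq2 (adjusted p = 0.057), with the low-count filter alone (0.097) and in a fit of all 45 libraries (0.082).

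The other 8 genes were not called after 2 h of Bic. Pdia4, the disulfide isomerase, had 34.56, 39.74, 33.38, 33.05 and 34.04 CPM in the controls and 29.60, 34.68, 29.13, 30.63 and 29.64 CPM after 2 h. It was lower in all 5 preparations by 0.11 to 0.22 on the log2 scale (adjusted p = 0.15), and the paired fit called it (log2 fold change -0.19, adjusted p = 0.019), where 29.3% of the genes it tested were called. Herpud1 had a log2 fold change of 0.21 (adjusted p = 0.31), and without preparation 3 it was 0.30 (adjusted p = 0.024). Sdf2l1 and Ern1 had 0.22 each, Xbp1 0.12, Hsp90b1 0.00, Creld2 -0.07 and Manf -0.14. The median over the 10 was 0.16, against -0.01 over all genes tested.

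Dnajb9 and Hspa5 had larger differences over the second hour of Bic (log2 fold changes of 0.31 and 0.32) than over the first (0.14 and 0.10), and whether these steps differ was not tested. From 1 to 2 h of Bic, 1 of the 10 was called, against 5.33% of all genes and 11.6% of the expressed genes. This was Dnajb9, which rose from 44.31 to 55.53 CPM (log2 fold change 0.31, SE 0.08, adjusted p = 0.0072). Without preparation 1 it was 0.23 and not called (adjusted p = 0.15), and in the fit of all 45 libraries it was not called either (0.061). Hspa5, Xbp1 and Sdf2l1 were called as well in the paired fit, 4 in all, against 23.5% of the genes it tested. All 4 were higher at 2 h in every preparation, Hspa5 by 0.24 to 0.45 and Xbp1 by 0.03 to 0.26 on the log2 scale. Without preparation 8, Hspa5 was called without the block (log2 fold change 0.35, adjusted p = 1.0e-05).

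**Figure D2:**
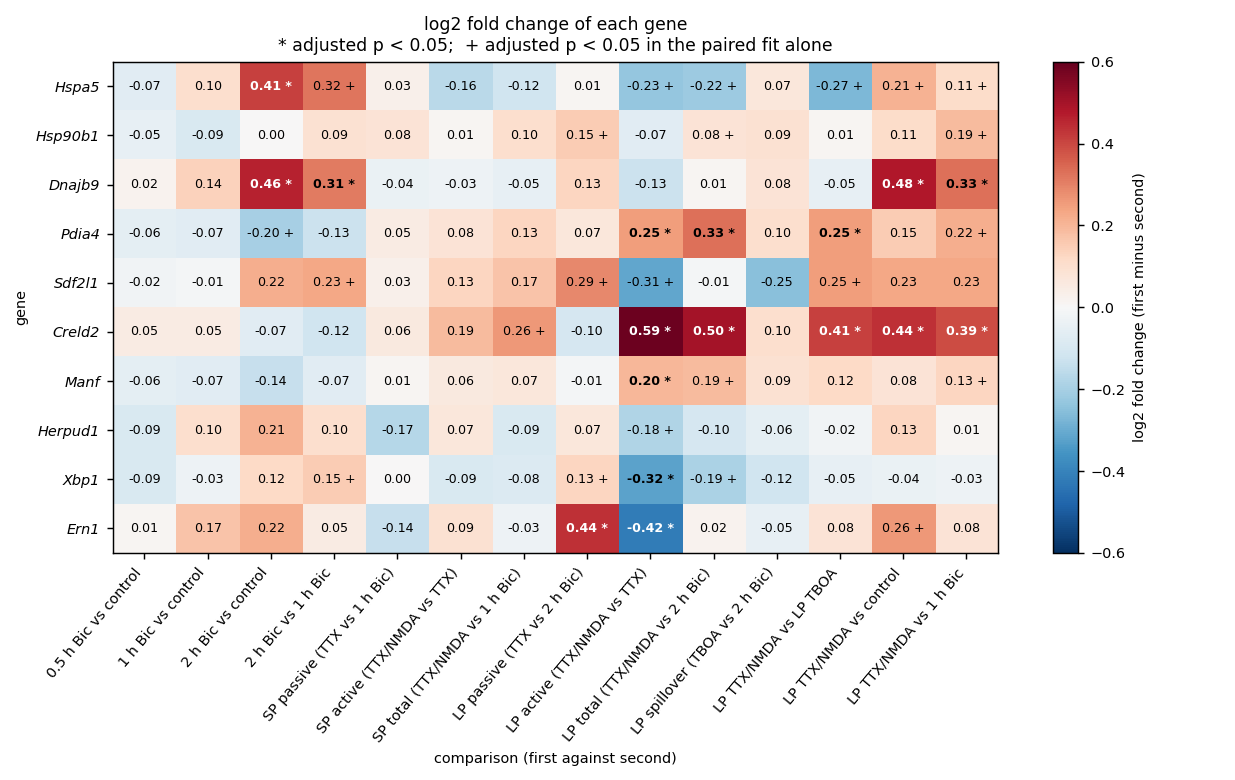
log2 fold change (edgeR, first condition minus second) of the 10 genes in the 14 comparisons, on a colour scale from -0.6 to 0.6. An asterisk marks an adjusted p under 0.05 and a plus sign a gene that passed in the paired fit alone. The LP active effect has 5 asterisks, 3 red (Creld2, Pdia4, Manf) and 2 blue (Xbp1, Ern1), and the comparisons of 0.5 and 1 h Bic have none.

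The SP asks whether stopping firing (passive effect) or NMDA on top of TTX (active effect) changes the genes within 0.5 h. In the passive effect 0 of the 10 were called against 0.268% of all genes, and 0 had an unadjusted p under 0.05. The active effect also called 0 of the 10, against 4.28%, with 0 at an unadjusted p under 0.05. Between SP TTX/NMDA and 1 h of Bic, the total effect, 0 of the 10 were called against 4.3%, and 1 had an unadjusted p under 0.05, Creld2. DESeq2 called 0 in all 3 comparisons, and the paired fit called 0 in the passive and active effects, against 0.489% and 16.2% of the genes tested. Creld2 had 8.396, 7.086, 7.172, 7.450 and 7.640 CPM after 1 h of Bic and 9.853, 8.440, 6.983, 9.708 and 9.909 CPM with SP TTX/NMDA. It was higher in 4 of 5 preparations (log2 fold change 0.26, SE 0.11, adjusted p = 0.27), and the paired fit called it (0.23, adjusted p = 0.038), against 27.3% of the genes that fit tested. Hspa5 was lower in SP TTX/NMDA than in SP TTX in all 5 preparations, by 0.06 to 0.27 on the log2 scale, and was not called (adjusted p = 0.53, and 0.061 in the paired fit).

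In the LP, stopping AP firing with TTX for the second hour was followed by a higher level of Ern1, the IRE1α gene. It was 1 of the 10 called in the passive effect, against 4.65% of all genes and 10.4% of the expressed genes. Ern1 had 6.622, 6.369, 8.491, 7.705 and 8.784 CPM after 2 h of Bic and 9.701, 10.750, 9.057, 10.740 and 11.530 CPM with LP TTX. The groups did not overlap, which held for 10.6% of the expressed genes, and the gap was small in preparation 6. The mean rose from 7.594 to 10.35 CPM (log2 fold change 0.44, SE 0.11, adjusted p = 0.011). Without preparation 3 the log2 fold change was 0.37 and the call was lost (adjusted p = 0.079).

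In the paired fit 4 of the 10 were called in this comparison, all higher, against 32% of the genes tested in either direction, adding Hsp90b1, Xbp1 and Sdf2l1 to Ern1. Sdf2l1, the partner of BiP, had 6.622, 5.841, 6.381, 6.738 and 7.840 CPM after 2 h of Bic and 9.701, 7.226, 7.129, 8.343 and 8.741 CPM with LP TTX. Its level was higher in all 5 preparations by 0.16 to 0.55 on the log2 scale, though the groups overlapped (log2 fold change 0.29, adjusted p = 0.17, and 0.012 in the paired fit). Xbp1 and Hsp90b1 were also higher in each preparation, with log2 fold changes of 0.13 and 0.15 (adjusted p = 0.42 and 0.26, and 0.032 and 0.019 in the paired fit). Hspa5 did not share this pattern, with 529.8 CPM on average against 522.6 and 3 preparations higher and 2 lower.

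In the LP active effect, NMDA on top of TTX, members changed in both directions. Called higher were 3 of the 10, Creld2, Pdia4 and Manf, against 11.6% of all genes, and called lower were 2 of the 10, Ern1 and Xbp1, against 11.8%. In either direction 23.3% of all genes and 46.9% of the expressed genes were called, so that 5 of 10 was near the background, and the median absolute log2 fold change was 0.24 both over the members and over the expressed genes. The median log2 fold change of the members was -0.15, against 0.11 over all genes tested and -0.01 over the expressed genes. DESeq2 called the same 5. Between LP TTX and LP TTX/NMDA the summed astrocyte markers went from a median of 1248 (range 1049 to 1605) to 1567 CPM (1221 to 2215), and the oligodendrocyte lineage markers from 153.6 (99.1 to 166) to 245.6 CPM (155.8 to 308.9). The vascular and fibroblast markers went from a median of 110.2 (67.41 to 144) to 204.2 CPM (87.11 to 207.9), the microglia markers from 8.242 (7.009 to 9.825) to 11.2 CPM (8.945 to 12.82) and the neuron markers from 8079 (7676 to 8558) to 6846 CPM (6674 to 7263). Their part in the values of LP TTX/NMDA was not tested.

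Creld2 had the largest log2 fold change of the 3 members that were higher. It had 7.898, 6.683, 5.604, 5.752 and 6.846 CPM with LP TTX and 11.320, 9.478, 9.534, 9.427 and 9.689 CPM with LP TTX/NMDA. Every TTX/NMDA library was above every TTX library, and the mean rose from 6.557 to 9.89 CPM (log2 fold change 0.59, SE 0.11, adjusted p = 2.0e-04). The increase within preparations was 0.50 to 0.77 on the log2 scale, and the call was kept under all 12 alternatives. Creld2, Ern1 and Manf were the 3 members whose groups did not overlap in the active effect, against 33% of the expressed genes.

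The other disulfide isomerase, Pdia4, had 32.58, 33.51, 33.22, 33 and 30.28 CPM with LP TTX and 41.58, 40.68, 33.06, 42.49 and 36.84 CPM with LP TTX/NMDA. It was higher in 4 preparations and differed by -0.01 on the log2 scale in preparation 6 (log2 fold change 0.25, SE 0.08, adjusted p = 0.013). The call was lost without preparation 1 (adjusted p = 0.06) and without preparation 7 (0.061). Manf, the secreted factor, had 41.08, 46.76, 44.25, 43.13 and 44.52 CPM with LP TTX and 49.41, 50.77, 53.66, 50.17 and 50.57 CPM with LP TTX/NMDA. Its groups did not overlap and its difference was small (log2 fold change 0.20, SE 0.07, adjusted p = 0.026), and the call was lost without preparation 1 (adjusted p = 0.077), 6 (0.16) or 7 (0.082). Both genes were called in the paired fit, with an adjusted p of 2.6e-04 for Pdia4 and 4.4e-04 for Manf.

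Ern1 and Xbp1, which encode the IRE1α sensor and its target, were both lower with TTX/NMDA than with TTX. Ern1 had 7.155, 7.464, 7.168, 8.310 and 8.858 CPM with LP TTX/NMDA, below the 9.057 to 11.530 CPM of the LP TTX libraries. The mean fell from 10.35 to 7.791 CPM (log2 fold change -0.42, SE 0.11, adjusted p = 0.0037), and its call was kept under all 12 alternatives. Xbp1 had 79.97, 88.99, 93.53, 87.17 and 104.20 CPM with LP TTX and 65.99, 72.92, 72.65, 68.04 and 85.81 CPM with LP TTX/NMDA. Preparation 8 kept the groups overlapping, while the fall within a preparation was nearly the same in all 5, between 0.28 and 0.36 on the log2 scale. The mean fell from 90.76 to 73.08 CPM (log2 fold change -0.32, SE 0.08, adjusted p = 0.0024), and the call was kept under all 12 alternatives. The LP TTX libraries enter both the passive and the active effect, so that the higher Ern1 in the first and the lower Ern1 in the second rest in part on the same 5 values.

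In the active effect 8 of the 10 were called in the paired fit, against 62.1% of the genes it tested, adding Hspa5, Herpud1 and Sdf2l1 as lower. Hspa5 had 470.9, 472.0, 531.1, 452.6 and 722.2 CPM with LP TTX and 420.4, 421.5, 396.7, 377.7 and 651.0 CPM with LP TTX/NMDA. It was lower in every preparation by 0.15 to 0.42 on the log2 scale, but preparation 8 set the spread of both groups (log2 fold change -0.23, adjusted p = 0.17, and 6.8e-04 in the paired fit). Without preparation 8 the log2 fold change was -0.26 and was called without the block (adjusted p = 0.0041). Sdf2l1 was also lower in all 5 preparations, by 0.05 to 0.53 (log2 fold change -0.31, adjusted p = 0.081, and 0.0042 in the paired fit), and it was called without preparation 6 (-0.38, adjusted p = 0.045). Herpud1 was lower by 0.08 to 0.32 in each preparation (log2 fold change -0.18, adjusted p = 0.24, and 0.0079 in the paired fit). Hsp90b1 and Dnajb9 were called in neither fit, with log2 fold changes of -0.07 and -0.13.

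**Figure D3:**
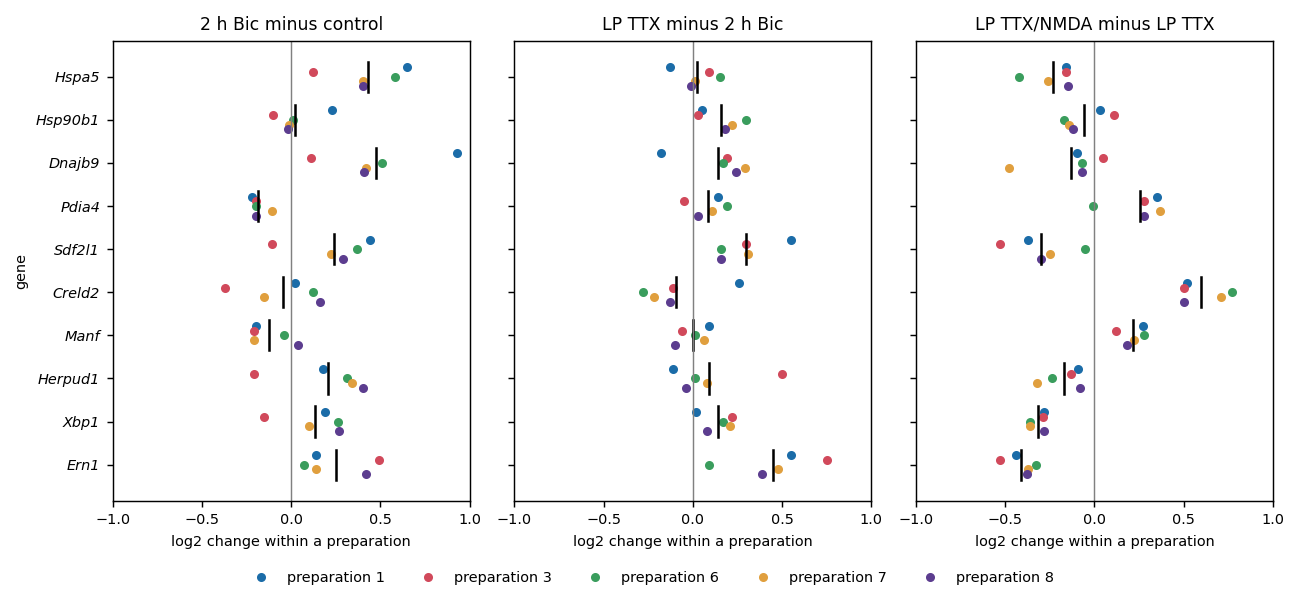
log2 change of each of the 10 genes within each culture preparation for 2 h Bic against control, LP TTX against 2 h Bic and LP TTX/NMDA against LP TTX. Points are preparations, coloured as named in the legend, and black bars are means of the 5. In the right panel Creld2 and Manf lie above 0 and Hspa5, Sdf2l1, Herpud1, Xbp1 and Ern1 below 0 in all 5 preparations.

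Compared with 2 h of uninterrupted firing, the total effect of LP TTX/NMDA was a higher level of Creld2 and Pdia4. They were 2 of the 10 called, both higher, against 22.8% of all genes called in either direction and 45.3% of the expressed genes. The same 5 LP TTX/NMDA libraries enter this comparison and those with LP TTX, control, 1 h of Bic and TBOA, so that their calls are not independent. Creld2 had 6.566, 7.180, 6.838, 6.706 and 7.470 CPM after 2 h of Bic, all below the LP TTX/NMDA libraries (log2 fold change 0.50, SE 0.11, adjusted p = 5.1e-04). Pdia4 rose from 30.74 to 38.93 CPM and was higher in all 5 preparations (log2 fold change 0.33, SE 0.08, adjusted p = 0.0016). Ern1 had 7.594 CPM after 2 h of Bic and 7.791 CPM with LP TTX/NMDA, and Dnajb9 had 55.53 and 56.24 CPM. Manf missed the threshold without the block (log2 fold change 0.19, adjusted p = 0.053) and passed it with DESeq2 (adjusted p = 0.043). Creld2 and Manf did not overlap between the groups, against 31.2% of the expressed genes. The paired fit called 6 of the 10 against 56.6% of the genes it tested, adding Hsp90b1 (0.11) and Manf (0.22) as higher and Hspa5 (-0.20) and Xbp1 (-0.16) as lower. Hspa5 was called without the block once preparation 8 was left out (-0.24, adjusted p = 0.0036).

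Against the untreated control, Creld2 and Dnajb9 were the 2 of the 10 called after LP TTX/NMDA, both higher. Of all genes 19.5% were called, and of the expressed genes 36.8%. Dnajb9 had 53.24, 63.11, 56.58, 42.84 and 65.41 CPM with LP TTX/NMDA, and its mean rose from 40.1 to 56.24 CPM (log2 fold change 0.48, SE 0.10, adjusted p = 5.6e-04). Creld2 rose from 7.222 to 9.89 CPM with groups that did not overlap, as for 23.1% of the expressed genes (0.44, SE 0.12, adjusted p = 0.0081), and without preparation 1 it was 0.36 and not called (adjusted p = 0.085). The paired fit added Hspa5 (0.23, adjusted p = 0.0092) and Ern1 (0.31, adjusted p = 0.045), against 47.2% of the genes it tested. The same pair was called against 1 h of Bic, the time when the intervention began, against 21.1% of all genes and 41.3% of the expressed genes. The log2 fold changes were 0.39 for Creld2 (adjusted p = 0.0084) and 0.33 for Dnajb9 (adjusted p = 0.0043). Creld2 alone did not overlap between these groups, against 27.4% of the expressed genes. DESeq2 called 4 of the 10 there, adding Hsp90b1 (0.19, adjusted p = 0.015) and Pdia4 (0.22, adjusted p = 0.025), and its share over all genes was not counted. The paired fit called 6, adding Manf and Hspa5, against 52.3% of the genes it tested. Xbp1 had 73.08 CPM with LP TTX/NMDA, 74.06 after 1 h of Bic and 75.15 in the control.

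Glutamate spillover under TBOA left 0 of the 10 called against 2 h of Bic, where 0.602% of all genes were called, and 0 of the 10 had an unadjusted p under 0.05. DESeq2 also called 0, as did the paired fit, against 2.67% of the genes it tested. Sdf2l1 and Xbp1 were lower with TBOA in all 5 preparations, with log2 fold changes of -0.25 and -0.12 (adjusted p = 0.63 and 0.67, and 0.12 and 0.19 in the paired fit). Between LP TTX/NMDA and LP TBOA, 2 of the 10 were called, against 16.6% of all genes and 33.4% of the expressed genes. They were Creld2 (log2 fold change 0.41, SE 0.11, adjusted p = 0.0061) and Pdia4 (0.25, SE 0.08, adjusted p = 0.029), both higher with TTX/NMDA. Creld2 had 7.554, 6.628, 8.399, 6.749 and 7.966 CPM with TBOA, all below the TTX/NMDA libraries. Manf did not overlap between these groups either (log2 fold change 0.12, adjusted p = 0.27), where 22.8% of the expressed genes did not. Pdia4 was not called without preparation 3 (0.26, adjusted p = 0.062) or 7 (0.17, adjusted p = 0.24). Hspa5 had 502.1, 485.3, 581.0, 443.7 and 712.8 CPM with TBOA and was lower with TTX/NMDA in all 5 preparations (log2 fold change -0.27, adjusted p = 0.094). The paired fit called it, with Sdf2l1 as higher, 4 members in all against 47.4% of the genes it tested, and without preparation 8 Hspa5 was called without the block (-0.31, adjusted p = 0.0014).

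Whether the active effect differed between the LP and the SP was tested as an interaction over the 20 libraries of the 4 groups. By edgeR 0 of the 10 were called, against 2.57% of all genes, and 3 had an unadjusted p under 0.05, Ern1, Creld2 and Sdf2l1. The active effect on Ern1 was 0.09 (SP) against -0.42 (LP), and the difference of -0.50 (SE 0.15, adjusted p = 0.075) had the same sign in all 5 preparations. It was called by DESeq2 (-0.52, adjusted p = 0.013). The paired fit called 4 of the 10, against 25% of the genes it tested, with Ern1 (-0.52, adjusted p = 0.0011), Sdf2l1 (-0.45, adjusted p = 0.012) and Xbp1 (-0.23, adjusted p = 0.047) lower and Creld2 (0.40, adjusted p = 0.039) higher in the LP. For the passive effect 0 of the 10 were called, against 0.256% of all genes, and 1 had an unadjusted p under 0.05. That gene was Ern1, with -0.14 in the SP and 0.44 in the LP (difference 0.57, SE 0.15, adjusted p = 0.12). DESeq2 (0.58, adjusted p = 0.0082) and the paired fit (0.58, adjusted p = 0.0061) called it, the latter against 2.01% of the genes it tested, and the difference was above 0 in all 5 preparations.

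The 10 genes did not vary as 1 block across the libraries. After centring each gene within each preparation, the closest pair over the 45 libraries was Hspa5 and Dnajb9 (Pearson's r = 0.85), followed by Hsp90b1 and Dnajb9 (0.76) and Hspa5 and Xbp1 (0.71). Manf and Pdia4 (0.68), Creld2 and Pdia4 (0.63) and Creld2 and Manf (0.62) varied together as well. Between these sets the lowest values were those of Xbp1 and Pdia4 (-0.48), Herpud1 and Pdia4 (-0.46) and Xbp1 and Creld2 (-0.42). Among the members with the ERSE, r was 0.59 for Hspa5 and Hsp90b1, 0.06 for Hsp90b1 and Creld2 and -0.20 for Hspa5 and Creld2. Hsp90b1, which has the element on both strands, moved by 1.196-fold at most between condition means. The libraries share conditions, preparations and depth, and these correlations are given as a description.

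Among 10939 genes with a mean of at least 5 CPM, those most like Hspa5 over the 45 libraries, after the same centring, were Vps37b, Calu, Ifrd1, Fam107b and Slc16a1, with r from 0.92 to 0.93. Calu encodes calumenin, a calcium-binding protein of the ER. For Xbp1 they were Cyp51, an enzyme of cholesterol synthesis, Leprotl1, Arl4a, Tmem251 and Klhl15, with r from 0.84 to 0.86. Without the centring, the genes most like Hspa5 were Nts, Leprotl1, Sec61a1, Zfp622 and Pgrmc1, with r from 0.86 to 0.93.

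Around the 10 genes, 81 further genes of the ER and the UPR were examined in 6 lists. After 2 h of Bic, 8 of the 81 were higher (9.88%) and 5 lower (6.17%), against 8.18% and 10.4% of the expressed genes. In the LP active effect 14 were higher (17.3%) and 24 lower (29.6%), against 20% and 26.9% of the expressed genes. Of the 79 it tested after 2 h of Bic, the paired fit called 12 higher (15.2%) and 12 lower (15.2%), against 15.4% and 16.4% of the expressed genes. Of the 80 it tested in the LP active effect, it called 26 higher (32.5%) and 30 lower (37.5%), against 33.8% and 33%. These shares were near the background, so that the counts over all 81 are no result about the ER and UPR genes as a whole.

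Among the sensors other than IRE1α, Eif2ak3, which encodes PERK, had 38.89 ± 4.766 CPM in the control, 65.66 ± 6.851 after 2 h of Bic, 67.58 ± 4.167 with LP TTX and 34.96 ± 6.123 with LP TTX/NMDA (SD, n = 5 each). It rose after 2 h of Bic (log2 fold change 0.75, SE 0.09, adjusted p = 5.1e-08) and was lower in the LP active effect (-0.96, SE 0.09, adjusted p = 1.2e-09). Atf6 (-0.56) and Mbtps2 (-0.31), which encodes the protease that completes ATF6 cleavage, were also lower in the LP active effect, 3 of the 5 genes on this list and 0 higher, against 26.9% of the expressed genes lower and 20% higher. Mbtps1, the first of the ATF6 proteases, was lower after 2 h of Bic (-0.35, adjusted p = 8.6e-04). The list's median was -0.31 in the LP active effect, against 0.11 over all genes and -0.01 over the expressed genes.

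In the PERK and ATF4 arm, 4 of 9 genes were higher (Ppp1r15a, Ppp1r15b, Atf4 and Sesn2) and 1 lower (Trib3) after 2 h of Bic, against 8.18% of the expressed genes higher and 10.4% lower. Ppp1r15a, which encodes GADD34 and is also an activity-regulated gene, rose from 40.35 ± 11.07 to 135.1 ± 20.52 CPM (log2 fold change 1.73, SE 0.12, adjusted p = 1.1e-13). Ppp1r15b, its constitutive relative, rose from 93.36 ± 4.072 to 177.2 ± 12.51 CPM (0.91, adjusted p = 1.3e-11). In the LP active effect 1 was higher, Nupr1 (0.57), and 3 were lower, Ppp1r15b (-0.76), Sesn2 (-0.42) and Ppp1r15a (-0.29), so that 4 of 9 were called against 46.9% of the expressed genes, and the list's median was -0.17. Ddit3, the gene of the stress factor CHOP, had 52.59 CPM with LP TTX and 58.31 CPM with LP TTX/NMDA and was not called (adjusted p = 0.65). The paired fit called it higher (log2 fold change 0.15, adjusted p = 0.013), as it did after 2 h of Bic (0.32, adjusted p = 0.037). In the LP active effect that fit called 2 of the 9 higher and 5 lower, against 33.8% and 33% of the expressed genes.

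Of the 22 other ER folding factors, 0 were called after 2 h of Bic, against 18.6% of the expressed genes. The paired fit called 3 of the 21 it tested, against 31.7% of the expressed genes. In the LP active effect 6 were higher and 4 lower, with a median of 0.03, so that 10 of 22 were called where 46.9% of the expressed genes were. Among those higher were Pdia5 (1.637 to 2.689 CPM, log2 fold change 0.70), another disulfide isomerase, and Fkbp11 (0.2701 to 0.5378 CPM, 1.05), a prolyl isomerase close to the limit of detection. Lower were Hyou1 (159.2 to 123.3 CPM, -0.38), an ER chaperone related to Hsp70, and Ero1l (-0.39), the oxidase that recharges disulfide isomerases. Of the 14 translocation and signal peptide processing genes, 5 were higher and 1 lower, against 20% and 26.9% of the expressed genes, with Sec11a (0.40), a signal peptidase subunit, and Ssr4, Spcs2 and Sec62 (0.31, 0.31 and 0.29) among those higher and a median of 0.12.

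Of the 18 genes of ER-associated degradation, 1 was higher in the LP active effect, Edem2 (10.02 to 14.86 CPM, log2 fold change 0.55), and 5 were lower, among them Edem3 (-0.43), Nploc4 (-0.36) and Sel1l (-0.34), with a median of -0.10. That made 6 of 18 called, against 46.9% of the expressed genes. Edem1 (-0.47) and Derl2 (-0.37) were the 2 of the 18 called after 2 h of Bic. Both were lower, against 10.4% of the expressed genes, so that this count was near the background. Of the 13 genes of ER calcium handling, 8 were lower and 1 higher in the LP active effect, against 26.9% and 20% of the expressed genes, with a median of -0.34. Itpr1, the main IP3 receptor of neurons, fell from 113.2 ± 13.93 to 67.17 ± 6.735 CPM (-0.76, SE 0.08, adjusted p = 1.5e-08), Ryr2 from 111.7 ± 12.76 to 69.51 ± 8.548 CPM (-0.69) and Orai1 from 12.98 to 8.041 CPM (-0.71). Itpr2, another IP3 receptor, rose from 5.186 ± 1.049 to 10.32 ± 2.385 CPM (0.99, SE 0.15, adjusted p = 7.7e-06). After 2 h of Bic 3 of the 13 were higher, Orai1 (0.45), Ryr2 (0.38) and Atp2a2 (0.33), the ER calcium pump, and 1 was lower, Stim2 (-0.32), a sensor of ER calcium, against 8.18% and 10.4% of the expressed genes.

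**Figure D4:**
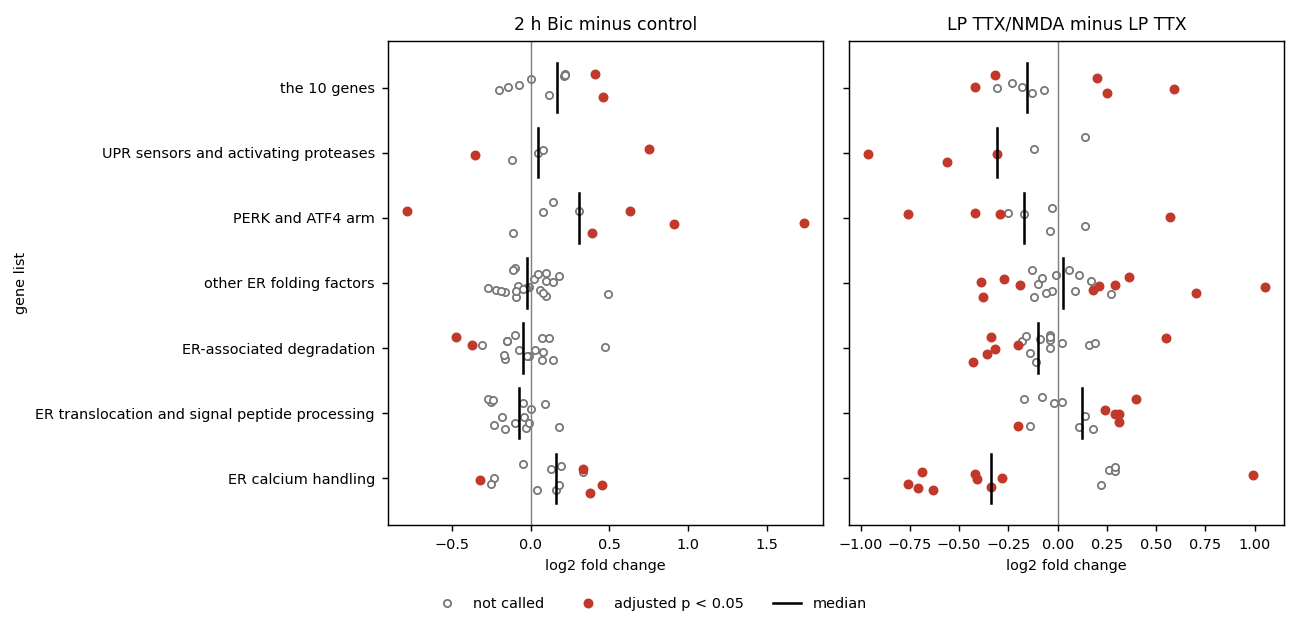
log2 fold change of the 10 genes and of the genes of 6 ER and UPR lists after 2 h Bic against control (left) and with LP TTX/NMDA against LP TTX (right). Each point is 1 gene, filled red where called at an adjusted p under 0.05, and black bars are list medians. On the right, sensors and calcium handling genes lie mostly below 0, with medians of -0.31 and -0.34, and translocation genes mostly above it, with a median of 0.12.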

How the data were processed

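RNA was sequenced from 45 libraries, 9 conditions with 5 culture preparations each. The authors prepared strand-specific poly-A libraries, sequenced them single-end with 75 cycles, demultiplexed with bcl2fastq (2.20.0.422), aligned to GRCm38 with STAR (2.5.4b) and counted reads per gene of Ensembl release 94 on the sense strand with featureCounts (1.6.5), and the deposited values are these raw counts, without normalization. Multi-mapping reads and reads shared between genes were not counted, which can lower Hsp90b1 (133 exon bases shared with Gm25745 and 84 with Gm15344), Manf (14 with Rbm15b) and Pdia4 (14 with Mir704).

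Each comparison was tested on its own libraries with edgeR (4.0.16, R 4.3.3), TMM normalization and the quasi-likelihood test, over all genes with at least 1 read, with Benjamini-Hochberg adjustment over all of them, and an adjusted p under 0.05 was called. The authors tested with DESeq2, which was an alternative here (1.42.0). Levels are CPM on TMM-normalized sizes, and log2 CPM within a preparation used a prior count of 0.5. Exon lengths came from GENCODE M21 on GRCm38, which may differ slightly from Ensembl 94. The numbers in the labels mark the culture preparation, so they pair libraries across conditions. Over 13592 genes, deviations from the condition means correlated by 0.43 on average within a preparation and by -0.11 between preparations. The paired fit has the preparation as a block and uses edgeR's filterByExpr. Scripts were tested on simulated counts.

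The genes, lists and the paired fit were chosen with earlier results of these data known. All 10 members are named. From each list the 4 genes with the largest log2 fold change called in the LP active effect and the 2 called after 2 h Bic are named, and for Hspa5 and Xbp1 the 5 genes most like them. Genes named beyond that rule were chosen after their values were seen. The preparations are separate cultures. Without the block, p-values set a difference against the spread between cultures. In the paired fit they set it against how far that difference varies from culture to culture.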

Additional observations from a re-analysis of the deposited data

Results flagged for a closer look

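In 14 of 90 groups of 5 libraries (10 genes in 9 conditions), 1 library lay farther from its nearest neighbour than Dixon's 95% limit for 5 values (0.71 of the group's range). Chance gives this in about 1 group in 20, and the groups of a preparation are not independent. Hspa5 in preparation 8 accounts for 6 of them, with 511.6 CPM after 0.5 h Bic (others 323.2 to 362.1), 616.4 after 1 h Bic, 725.8 after 2 h Bic, 577.5 with SP TTX, 530.0 with SP TTX/NMDA and 651.0 with LP TTX/NMDA (others 377.7 to 421.5). In the same preparation Xbp1 stood apart at 80.00 CPM after 0.5 h Bic (others 67.57 to 69.37) and at 87.51 CPM with SP TTX/NMDA. Why preparation 8 was high was not tested.

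Creld2 with LP TTX/NMDA was 11.32 CPM in preparation 1, against 9.427 to 9.689 in the others, all of them above the LP TTX libraries. Sdf2l1 with LP TTX/NMDA was 5.016 CPM in preparation 3, below the 6.89 to 7.517 of the others. Manf after 0.5 h Bic was 37.67 CPM in preparation 1. Pdia4 was 39.74 CPM in the control and 34.68 CPM after 2 h Bic of preparation 3, above the others in both, and 30.28 CPM with LP TTX in preparation 8, below the others.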

How the results depend on the processing

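No member changed direction in a comparison where it was called, under any alternative run (DESeq2 size factors, filterByExpr, no filter, DESeq2, all 45 libraries, the replicate block over 2 gene sets, and each preparation left out). DESeq2 size factors moved the median of all genes by at most 0.014 (log2). The replicate block over genes with at least 1 read and over genes passing filterByExpr (the paired fit) gave, in this order, 4 and 3 members after 2 h Bic (2 without a block), 3 and 4 from 1 to 2 h Bic (1), 1 and 0 in the SP active (0), 1 and 1 in the SP total (0), 5 and 4 in the LP passive (1), 9 and 8 in the LP active (5), 5 and 6 in the LP total effect (2), 4 and 4 against TBOA (2), 4 and 4 against control (2), 4 and 6 against 1 h Bic (2), and 5 and 4 in the active (0) and 1 and 1 in the passive interaction (0). Of the 81 list genes, 25 and 24 were called after 2 h Bic, against 13. The block lost no member call and changed no other of these counts by over 1.5 times. After 2 h Bic, filterByExpr, DESeq2 and all 45 libraries gave 1 member each, and from 1 to 2 h Bic all 45 libraries gave 0. Against 1 h Bic, filterByExpr and DESeq2 gave 4 each, in the active interaction 1 each, and in the passive interaction DESeq2 gave 1. Leaving out each preparation gave 1 to 3 members after 2 h Bic, 0 to 2 from 1 to 2 h Bic, 0 to 1 in the LP passive, 3 to 6 in the LP active and 2 to 4 in the LP total effect, 1 to 3 against TBOA, 1 to 2 against control and 2 to 4 against 1 h Bic. The cause of these shifts was not tested. Of the genes most like Hspa5 and Xbp1, the centring decided several.

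Depth limits Sdf2l1, Creld2 and Ern1 most, whose lowest counts were 56, 74 and 67 reads. Gene counts do not separate Xbp1 isoforms, and mRNA levels say nothing of protein.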
